A study of Mus musculus with 16 samples.

Results

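The comparison set mature metaphase II (MII) oocytes of sexually immature mice against those of adult mice. All 16 post-bisulphite adapter tagging (PBAT) libraries of the series were used, pooled by the sexual maturity of the females: 9 prepubertal-origin libraries and 7 adult libraries. Every library was a pool of oocytes, and all females were first-generation hybrids (F1) of the C57BL/6J and CBA/Ca strains. The prepubertal class held 4 libraries made after in vitro follicle culture (IFC), in which oocytes grew inside follicles taken from 13-day-old females and kept in culture for 10 days (labelled age 23 days), and 5 libraries of 23-day-old superovulated females (SO, 2.5 IU of each gonadotropin). The adult class held 4 libraries of 10-week-old superovulated females (SOA, 5 IU of each gonadotropin) and 3 libraries of 10-week-old females that ovulated naturally (IV). Maturity divided the classes, but not alone. Culture occurred only in the prepubertal class, natural ovulation only in the adult class, and each class had its own gonadotropin dose. Culture and mode of ovulation are thus partly aligned with maturity. Hormone dose cannot be told apart from age between SO and SOA. Each effect of maturity given here is therefore a difference between these 2 mixed classes.

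As background, the oocyte receives its DNA methylation after birth, during the growth phase, when DNMT3A with its partner DNMT3L methylates CpGs mainly across transcribed gene bodies. Regions that are not transcribed mostly remain unmethylated, as do most CpG islands, while the germline differentially methylated regions (gDMRs) of maternally methylated imprinted genes become methylated. Methylation of a gene body in the oocyte therefore usually marks transcription across it during growth.

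Sequences were taken for the genes that the results turn on, so that the CpGs behind the percentages can be seen. For each, the 200 bases with most covered CpGs were read from GRCm38 and are written 5′ to 3′ on the strand of the gene, with CpGs in capitals. The Mertk window (chr2:128699083-128699282, in the promoter region just downstream of the start) had 62 of 80 calls methylated, or 77.5%, in the prepubertal libraries, against 19 of 45, or 42.2%, in the adult libraries. The Klf12 window (chr14:99987262-99987461, mostly intron) stood at 40.4% of 57 calls against 26.8% of 112 calls. The Zbtb20 window (chr16:43609378-43609577, exonic) stood at 23.8% of 164 calls against 9.19% of 185 calls. The Msi2 window (chr11:88348768-88348967) and the Rbm47 window (chr5:66026838-66027037), largely or wholly exonic, lay in regions of the opposite direction. Msi2 stood at 75.5% of 94 calls in prepubertal against 92.1% of 76 calls in adult libraries, and Rbm47 at 70.0% of 60 calls against 96.7% of 61 calls.
Mertk promoter region: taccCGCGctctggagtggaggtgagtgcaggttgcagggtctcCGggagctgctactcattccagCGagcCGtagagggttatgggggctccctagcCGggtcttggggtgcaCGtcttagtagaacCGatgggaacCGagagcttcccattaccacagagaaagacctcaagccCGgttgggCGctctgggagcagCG
Klf12: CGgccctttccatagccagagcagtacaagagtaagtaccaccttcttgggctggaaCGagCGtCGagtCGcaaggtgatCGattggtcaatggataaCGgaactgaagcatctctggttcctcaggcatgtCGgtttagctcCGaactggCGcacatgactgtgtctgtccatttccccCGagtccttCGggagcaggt
Zbtb20: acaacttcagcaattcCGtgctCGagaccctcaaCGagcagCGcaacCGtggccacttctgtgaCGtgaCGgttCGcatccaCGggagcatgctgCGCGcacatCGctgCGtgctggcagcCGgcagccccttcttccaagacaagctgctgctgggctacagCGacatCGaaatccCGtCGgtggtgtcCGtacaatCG
Msi2: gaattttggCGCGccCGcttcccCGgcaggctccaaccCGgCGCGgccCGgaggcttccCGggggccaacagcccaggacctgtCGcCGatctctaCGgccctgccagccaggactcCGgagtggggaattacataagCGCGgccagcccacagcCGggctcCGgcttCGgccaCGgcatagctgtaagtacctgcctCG
Rbm47: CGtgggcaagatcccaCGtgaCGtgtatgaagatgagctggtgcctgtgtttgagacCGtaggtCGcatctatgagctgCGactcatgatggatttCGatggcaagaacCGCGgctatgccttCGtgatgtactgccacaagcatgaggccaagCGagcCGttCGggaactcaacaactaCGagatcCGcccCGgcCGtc
These windows hold between 12 and 20 CpGs in 200 bases. They pool few calls over the libraries, so the percentages are descriptions, and the tests below rest on 10-kb bins, whole gene bodies and promoter regions. A window can differ from the bin that holds it. The bin of the Zbtb20 window had 49.2% in prepubertal and 27.6% in adult libraries, and that of the Npas3 window 49.6% and 22.0%. Of the 9 prepubertal and 7 adult libraries, 8 and 4 had calls in the Mertk window and 6 and 6 in that of Klf12. For Zbtb20 it was 8 and 7, for Msi2 7 and 4, and for Rbm47 8 and 5. In the windows chosen in the same way for Npas3 and Fer1l6, methylation was low in both classes: 0 of 33 and 1 of 44 calls in Npas3, and 2 of 39 and 5 of 23 calls in Fer1l6, in prepubertal and adult libraries respectively.

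Libraries held 5218053 to 23065411 CpG calls. All 4 IFC libraries lay below 10000000 calls and all 3 IV libraries above, so depth and group were partly confounded. The promoter regions of 8 of 11 maternally methylated imprinted genes were highly methylated, as in oocytes, with class means between 80.3% and 100%. The regions of Inpp5f, Plagl1 and Mest, placed like all others at the outermost annotated start, read 0.70% to 48.5%. Mest read 48.5% in prepubertal and 26.9% in adult libraries, on 147 calls in all. Whether another start would read high was not tested. In the promoter regions of the paternally methylated H19, Rasgrf1 and Meg3, class means stayed between 0.52% and 4.89%. Those regions surround the gene start, and whether they hold the gDMR was not tested. Library IV1 stood apart in the unmethylated part of the genome: its mean was 15.2% over the bins with a 16-library mean below 20%, against 6.25% to 8.10% in the other adult libraries. Nothing in the labels gives a pool's animals, so p-values measure the spread between pools.

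The genome of prepubertal and adult oocytes was methylated to the same overall level within the spread between libraries. The differences called lay in a small share of the bins tested. Of 246285 autosomal 10-kb bins, 127112 had at least 10 calls in all 16 libraries. Mean bin methylation was 42.3% ± 0.752 (SD, n = 9) in prepubertal and 42.5% ± 1.51 (SD, n = 7) in adult oocytes, a difference of -0.27 points (exact permutation test, two-sided, p = 0.672, adjusted p = 0.869 over 6 such tests). In prepubertal libraries the values ran from 40.9% to 43.0%, and in adult libraries from 40.8% to 45.3%, so the classes overlapped. Without IV1 the difference was 0.20 points. The share of bins below 20% was 43.3% ± 0.804 (SD, n = 9) against 42.6% ± 3.72 (SD, n = 7), and the share above 80% was 27.1% ± 0.990 (SD, n = 9) against 27.2% ± 0.863 (SD, n = 7). None of the 6 measures differed between classes beyond the spread, and across bins the class means correlated with Pearson's r = 0.985, a description over bins that share libraries.

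Bins were tested by a logistic model of methylated and unmethylated calls with a quasi-binomial F test, which scales the test by the spread between libraries, and Benjamini-Hochberg adjustment. Of the 127112 bins, 2957 (2.33%) passed an adjusted p of 0.05, with 1552 higher (1.22%) and 1405 lower (1.11%) in prepubertal oocytes. Without the deepest library, SOA4, 1944 bins passed. The count was 804 without IFC, 672 without IV, and 0 among the libraries below or above 10000000 calls taken alone. A further limit of 20 percentage points left 841 hypermethylated bins (0.662%) and 802 hypomethylated bins (0.631%) in prepubertal oocytes, and these are meant by called bins from here on. The smallest differences inside that limit were 20.017 and -20.001 points, and the nearest outside were 19.997 and -19.990 points. Of the 841 and 802 bins, 384 and 235 were also called without IFC, and 341 and 191 without IV. All prepubertal libraries lay above all adult libraries in 422 (50.2%) of the 841 hypermethylated bins, against 0.419% of all bins tested. All prepubertal libraries lay below all adult libraries in 375 (46.8%) of the 802 hypomethylated bins, against 0.401% of all bins tested. As the bins were chosen on these libraries, the selection largely fixes these contrasts.

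**Figure D1:**
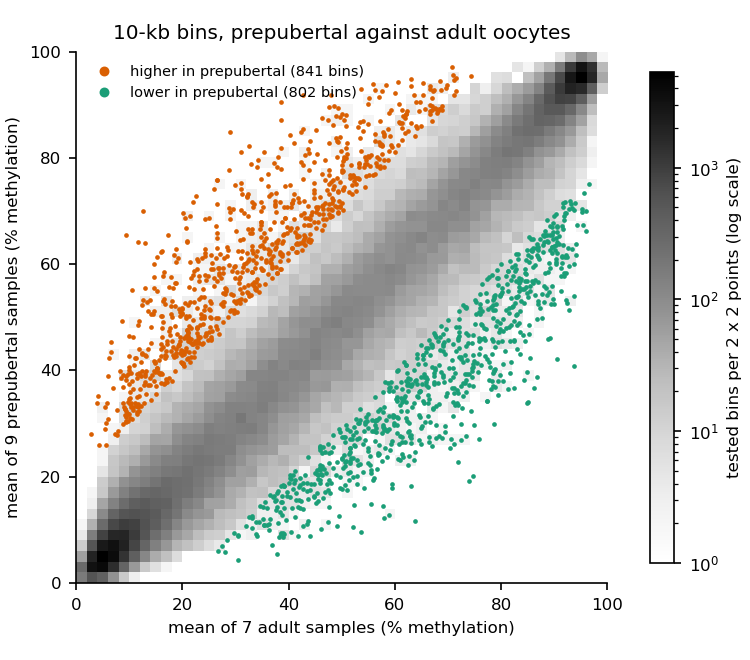
Mean methylation of each 10-kb bin in 7 adult libraries (x axis, %) against 9 prepubertal libraries (y axis, %), with the density of all tested bins in grey on a log scale and called bins in colour. The 841 hypermethylated and 802 hypomethylated bins flank a diagonal that holds nearly all bins.

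The hypermethylated bins lay mostly inside genes, and the hypomethylated bins did so about as often as all bins tested. Of the 841 hypermethylated bins, 87.4% overlapped a gene and 79.2% lay wholly inside one, while 68.1% and 47.4% of all tested bins did. Of the 802 hypomethylated bins, 60.6% overlapped a gene and 47.1% lay wholly inside one. Bins holding a gene start made up 6.78% of the hypermethylated and 10.3% of the hypomethylated bins, against 16.1% of all bins. The median number of CpGs per bin was 100 and 97, against 101 in all bins. These shares are descriptions, since neighbouring bins share genes. The background also differs: 96.1% of the hypermethylated and 97.1% of the hypomethylated bins had a mean of 20 to 80%, against 29.7% of all bins. Of the 1314 bins that passed the test with a difference below 20 points, 76.7% overlapped a gene and 14.9% held a gene start. Whether the shares of the called bins depart from those of bins of intermediate methylation was not tested.

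In hypermethylated bins the median was 61.9% in prepubertal and 32.1% in adult oocytes, and in hypomethylated bins 37.4% and 67.6%. A mean of 20 to 80% over all libraries was found in 96.1% of the hypermethylated and 97.1% of the hypomethylated bins, but in 29.7% of all bins tested. The 20-point limit largely fixes this, since a bin near 0 or 100% in all libraries cannot pass it, and 56.2% of the 1314 bins that passed the test with a smaller difference were intermediate. In adults 25.4% of the hypermethylated bins were below 20%, and 17.1% were above 80% in prepubertal oocytes. Of the hypomethylated bins, 27.4% were above 80% in adults and 16.7% below 20% in prepubertal oocytes.

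**Figure D2:**
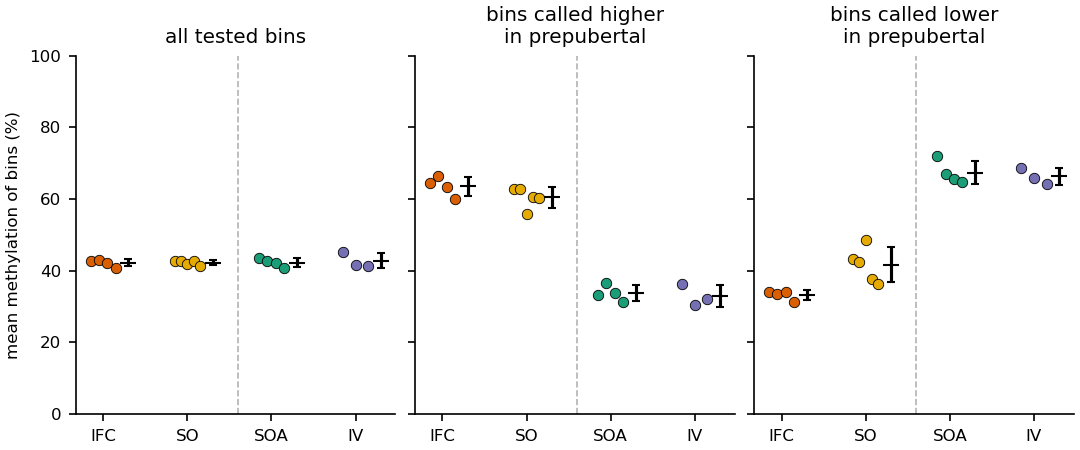
Mean methylation (%) per library over all tested bins, hypermethylated bins and hypomethylated bins; points are libraries, and bars give the group mean ± SD (n = 4, 5, 4 and 3). The called bins were chosen on these libraries, so the gap in the middle and right panels is a description; the overall level is alike in the 4 groups.

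The levels of the 4 groups in the called bins are a description, because the bins were chosen on all 16 libraries. Over the hypermethylated bins, prepubertal libraries had a mean of 55.8% to 66.5% and adult libraries 30.3% to 36.6%. The lowest prepubertal library was SO3 and the highest adult library SOA2. Over the hypomethylated bins, prepubertal libraries ran from 31.2% to 48.5% and adult libraries from 64.2% to 72.1%, with SO3 again nearest to the adults. In all 841 and all 802 bins the group means had the same direction in IFC and SO against each of SOA and IV, and the 4 pairs of groups each differed by 10 points or more in 836 and 798 bins, counts that the choice of bins largely fixes. IFC stood further from adults than SO: the median difference between SO and IFC was -2.82 points in hypermethylated and 7.45 points in hypomethylated bins. Between SOA and IV the medians were 0.42 and 1.22 points.

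Whether a bin chosen in superovulated oocytes also differed in the other groups was asked with libraries that share no sample. The quasi-binomial test called 0 bins between SO and SOA and 0 between IFC and IV with a 20-point difference, with 9679 and 9753 bins at an unadjusted p below 0.05. The likelihood-ratio test takes each call as independent and was used to choose bins after this result was seen. In simulation it called 4.92% of unchanged bins. Shares over bins chosen so are descriptions, since neighbouring bins share genes, and IFC differs from IV in culture and depth as well as maturity. By this test, 1128 bins were hypermethylated in SO against SOA by 20 points or more. Read in the other groups, IFC libraries had a mean of 57.8% ± 2.91 (SD, n = 4) over these bins. IV libraries had 36.0% ± 3.32 (SD, n = 3). IFC was higher than IV in 92.3% of them and by 20 points or more in 54.2%, against 46.8% and 1.45% of all bins and 49.3% and 4.56% of bins with a mean of 20 to 80%. Over the 1199 bins hypomethylated in SO, IFC libraries had 37.6% ± 1.79 (SD, n = 4) against 58.8% ± 2.72 (SD, n = 3) for IV libraries, and IFC was lower in 88.9% of them, against 53.2% of all bins and 50.7% of intermediate ones.

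The reverse reading gave the same direction with smaller differences. The 1832 bins hypermethylated in IFC against IV had 53.2% ± 2.25 (SD, n = 5) in SO and 38.7% ± 2.64 (SD, n = 4) in SOA, and SO was higher in 85.7% of them, against 51.1% of all bins. The 2795 bins hypomethylated in IFC had 48.5% ± 3.68 (SD, n = 5) in SO and 60.9% ± 2.52 (SD, n = 4) in SOA, and SO was lower in 88.4% of them, against 48.9% of all bins. A difference of 20 points or more was read in 33.5% and 23.6% of these bins, against 0.94% and 1.05% of all bins and 3.00% and 3.41% of intermediate ones. IFC against IV differs in culture as well as maturity, and all IFC libraries were shallow and all IV libraries deep.

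**Figure D3:**
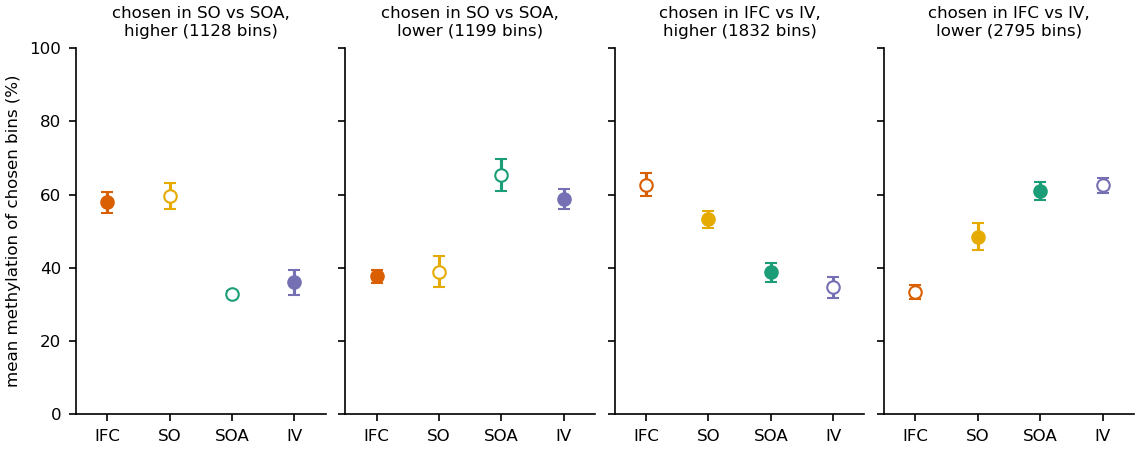
Mean methylation (%) ± SD over libraries in bins chosen by the likelihood-ratio test in one pair of groups (open circles, which chose the bins) and read in the pair that shares no library (filled circles). In all 4 sets the filled circles of the prepubertal group lie on the same side of the adult group as the open ones, with a narrower gap in bins chosen between IFC and IV.

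Some called bins lay side by side and 450 hypermethylated and 430 hypomethylated bins were single. Of the hypermethylated bins 46.5%, and of the hypomethylated bins 46.4%, had a neighbour in the same set. There were 121 hypermethylated and 132 hypomethylated runs of 2 or more bins, and 19 and 9 runs of 5 or more. The longest hypermethylated runs were 16 bins in Tcf4 (chr18:69370001-69530000), 13 in Atrnl1 (chr19:57640001-57770000), 11 in Zfp521 (chr18:13790001-13900000), 10 in Prkag2 (chr5:24990001-25090000) and 9 in Mark1 (chr1:184900001-184990000). The longest hypomethylated runs were 25 bins in Msi2 (chr11:88330001-88580000), 10 in Rbm47 (chr5:66070001-66170000) and 7 in Fer1l6 (chr15:58520001-58590000). A run of 6 bins covered the kallikrein genes Klk15, Klk1b1, Klk1b8 and Klk1b9 (chr7:43920001-43980000), serine proteases encoded in a cluster, with 22.3% in prepubertal and 57.1% in adult oocytes.

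Runs outside genes were short. The longest hypermethylated runs that touched no gene held 2 bins each: chr7:134560001-134580000, with 63.8% in prepubertal and 40.6% in adult oocytes, and chr3:51130001-51150000, with 29.8% and 6.87%. The longest hypomethylated ones held 4 bins each, among them chr2:158920001-158960000, with 53.1% and 82.8%, chr9:120690001-120730000, with 49.8% and 80.8%, and chr15:58700001-58740000, near Fer1l6, with 14.99% and 60.3%. In the adults, at least 1 flanking bin was below 20% for 64.6% of the 398 hypermethylated runs and single bins with both flanks tested, and for 37.5% of the 328 hypomethylated ones, against 40.9% of all bins of intermediate methylation. A flank above 80% was found for 12.6% and 30.5%, against 45.7%. By their choice, hypermethylated bins are lower and hypomethylated bins higher in adults than in prepubertal oocytes. The bins set beside them were chosen only by a mean of 20 to 80%. These shares are therefore descriptions, and whether they depart from those of bins with a like adult level was not tested.

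Among genes, 378 held at least 1 hypermethylated bin and 255 at least 1 hypomethylated bin, 31 and 19 held 5 or more, and 3 genes held bins of both directions. The 14 genes with most hypermethylated and the 10 with most hypomethylated bins are described next. They are called hypermethylated or hypomethylated genes after their bins. Over the whole gene body, 5 of the 14 and 5 of the 10 passed 20 points. Their gene-body values use the same calls as the bins and are a second summary of them, not independent evidence. Gene bodies were tested in the same way for 21525 genes, of which 827 (3.84%) passed, 501 (2.33%) higher and 326 (1.51%) lower in prepubertal oocytes, with 89 (0.413%) and 70 (0.325%) past 20 points. Without IFC 29 genes and without IV 39 genes were lower by 20 points or more. All 24 named genes passed with all 16 libraries, 5 of them among the libraries below 10000000 calls alone and 0 among those above. In 22 of them the libraries of the classes did not overlap, against 0.706% of all genes tested with all prepubertal libraries above and 0.567% with all below. Arhgap24 and Etl4 overlapped.

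The 5 genes with most hypermethylated bins, Tcf4, Klf12, Zfp521, Npas3 and Zbtb20, encode transcription factors. Tcf4 encodes a basic helix-loop-helix E-protein of neural and lymphoid development. It had 27 called bins of 35 tested, and its gene-body methylation was lowest at 75.6%, median 78.7% and highest at 86.3% in prepubertal libraries, against 42.0%, 49.96% and 60.0% in adult libraries. The means differed by 29.5 ± 2.64 points (SE; quasi-binomial F test, adjusted p = 6.36e-06). Every prepubertal library was far above every adult library, and IV (45.1%) was below SOA (54.5%). Zfp521, a zinc-finger co-regulator of progenitor cells, had 23 called bins of 28. Its prepubertal libraries ran from 54.0% (median 61.2%) to 67.5% and its adult libraries from 24.1% (median 28.3%) to 30.7%, a difference of 33.7 ± 1.57 points (adjusted p = 4.81e-07). The gap between the lowest prepubertal and highest adult library was wider than the range within adults.

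Klf12, a Krüppel-like transcriptional repressor (chr14:99870632-100284679, minus strand), had 25 called bins of 37. It was almost unmethylated in adults, from 6.89% (median 9.73%) to 16.1%, and reached 29.0% (median 33.9%) to 38.2% in prepubertal libraries, a difference of 23.6 ± 1.46 points (adjusted p = 1.36e-05). The highest adult value was that of IV1. Zbtb20, a BTB zinc-finger repressor, had 16 of 38 bins and went from 35.0% (median 39.7%) to 41.9% in adults and from 52.0% (median 56.9%) to 59.1% in prepubertal libraries. Npas3, a neuronal PAS-domain factor, had 22 of 70 bins, with means of 64.4% and 49.97%. Prdm16, a zinc-finger factor with a PR domain, had 9 of 33 bins, with means of 50.2% and 37.3%. IFC (54.6%) lay above SO (46.7%) in Prdm16. Without the IV group, its gene-body difference was 12.66 points and no longer passed the test.

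In Prkag2 and Atrnl1 the called bins covered a stretch of the gene, whereas in Mark1 they covered most of it. Prkag2, a regulatory subunit of the energy sensor AMPK (chr5:24862744-25100642, minus strand), had 15 of 25 bins, between 15.6 and 185.6 kb from the start. These bins had a mean of 63.7% in prepubertal and 24.98% in adult oocytes, whereas its 10 other bins had 40.8% and 38.2%. Its gene body ran from 48.4% (median 54.8%) to 60.3% in prepubertal and from 28.4% (median 31.0%) to 36.0% in adult libraries. Atrnl1, an attractin-like transmembrane protein (chr19:57611034-58133343, plus strand), had its 14 called bins in the first 154.0 kb, with 56.1% against 20.0%, while its 34 other bins had 39.9% and 39.7%. Mark1, a microtubule affinity-regulating kinase, had 9 of 11 bins, and its gene body ran from 47.8% (median 59.9%) to 62.3% in prepubertal and from 22.8% (median 25.9%) to 31.2% in adult libraries. The difference was 29.5 ± 2.47 points (adjusted p = 3.85e-05). The lncRNA Gm38251 overlaps this block.

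The remaining hypermethylated genes had differences of 8.51 to 14.2 points over the gene body. Ctnnd2, a delta-catenin of neuronal junctions, had 13 of 66 bins. Dlgap2, a postsynaptic scaffold protein, had 13 of 70 bins. Kif26b, a kinesin family member, had 11 of 40 bins. Arhgap24, a GTPase activating protein, had 10 of 39 bins between 253.6 and 413.6 kb from its start, at 55.3% against 26.0%. Its gene body overlapped between classes through IV1 (24.8%), and without the IFC group its difference was 9.21 points and no longer passed. Pard3b, a cell polarity protein, had 9 of 54 bins. In 13 of the 14 hypermethylated genes, Atrnl1 being the exception, the mean of IFC was above that of SO.

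**Figure D4:**
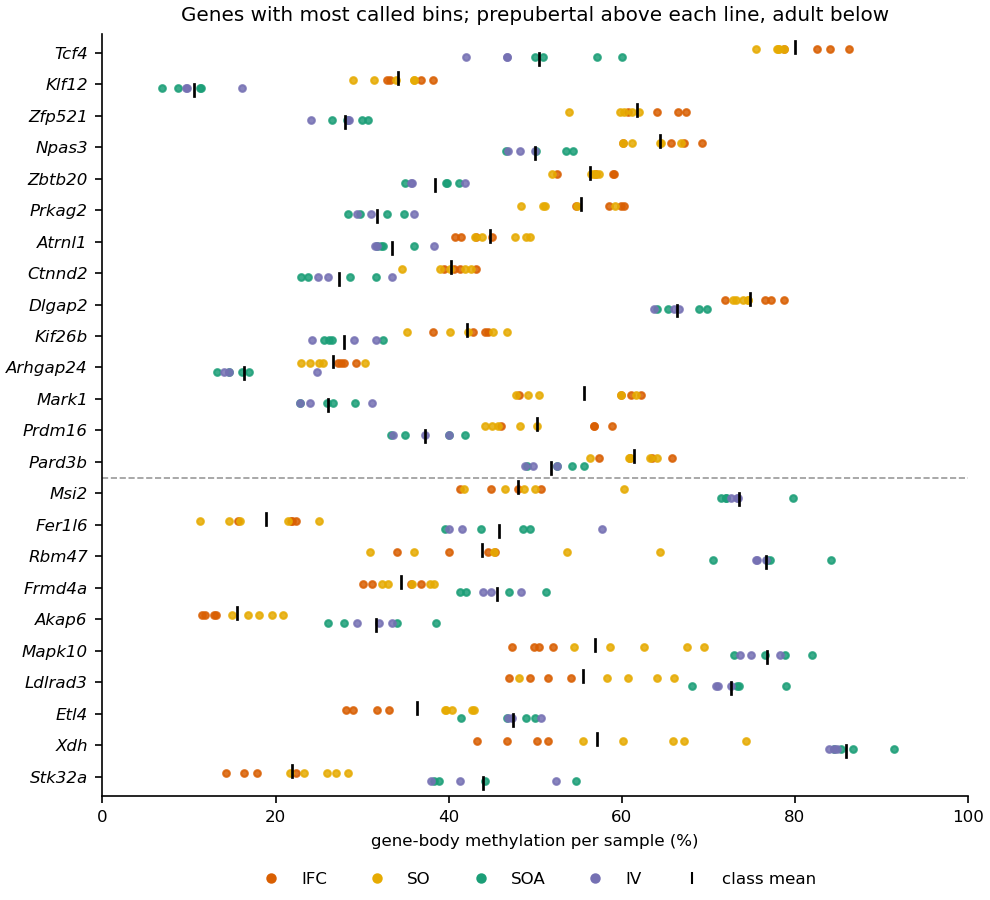
Gene-body methylation (%) in each of 16 libraries, with bars at the class means. The 14 genes with most hypermethylated bins are at the top, and the 10 with most hypomethylated bins under the dashed line. Over the gene body, 5 of the 14 and 5 of the 10 passed 20 points. The classes separate in 22 of 24 genes; Arhgap24 and Etl4 overlap.

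Msi2, a Musashi translational regulator (chr11:88339382-88718513, minus strand), had the most hypomethylated bins, 30 of 39. Its gene body ran from 41.3% (median 48.0%) to 60.3% in prepubertal and from 71.5% (median 72.6%) to 79.8% in adult libraries, a difference of -25.5 ± 2.17 points (adjusted p = 0.000125). SO3 was the highest prepubertal library and SOA1 the highest adult library. The called bins lay from 53.5 to 383.5 kb from the start, while the first bin of the gene, 3.51 kb from the start, had 2.01% in prepubertal and 2.55% in adult oocytes. Rbm47, an RNA-binding cofactor of mRNA editing (chr5:66016549-66173118, minus strand), had 12 of 17 bins, at 39.1% against 78.7%. Its gene body ran from 30.9% (median 44.5%) to 64.4% and from 70.5% (median 76.7%) to 84.1%, a difference of -32.8 ± 3.78 points (adjusted p = 0.00094). Prepubertal libraries were spread more widely than adult ones, with an SD of 10.4 against 4.00 points.

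Fer1l6, a ferlin-like membrane protein (chr15:58510048-58665092, plus strand), had 13 of 15 bins. Its gene body ran from 11.3% (median 21.4%) to 24.98% in prepubertal and from 39.5% (median 43.7%) to 57.7% in adult libraries, a difference of -26.9 ± 2.92 points (adjusted p = 0.000362). Xdh, the xanthine dehydrogenase of purine breakdown (chr17:73883895-73950196, minus strand), had 6 of 7 bins. It was highly methylated in adults, from 84.0% (median 84.8%) to 91.4%, and lower and uneven in prepubertal libraries, from 43.2% (median 55.5%) to 74.4%. Here IFC had a mean of 47.9% and SO 64.6%. Stk32a, a serine/threonine kinase, had 6 of 11 bins, with means of 21.9% and 44.0%.

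Akap6, an anchoring protein for protein kinase A, had 11 of 36 bins and ran from 11.5% (median 14.9%) to 20.8% in prepubertal and from 26.1% (median 31.9%) to 38.6% in adult libraries. Mapk10, the neuronal JNK kinase, had 9 of 27 bins, at 43.8% against 76.1% in those bins. Its gene-body difference of -19.8 points was -14.19 without IFC and -20.64 without IV, and passed in neither. Frmd4a, a FERM-domain scaffold of cell polarity, had 12 of 54 bins at 52.9% against 78.6%. Ldlrad3, a receptor of the LDL receptor class A type, had 8 of 24 bins at 54.2% against 80.3%. Etl4 had 7 of 42 bins, between 615.2 and 795.2 kb from the start. In those bins IFC had a mean of 22.9%, SO 49.6%, SOA 71.2% and IV 71.4%, so IFC and SO also differed within the prepubertal class. IFC and SO differ in culture, in the gonadotropin given to the females and partly in depth. Which of these goes with the gap was not tested. The gene-body difference of Etl4 was -11.06 points, -6.35 without IFC, and -10.42 without IV, where it did not pass. In 9 of the 10 hypomethylated genes the mean of IFC was below that of SO, Fer1l6 being the exception.

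**Figure D5:**
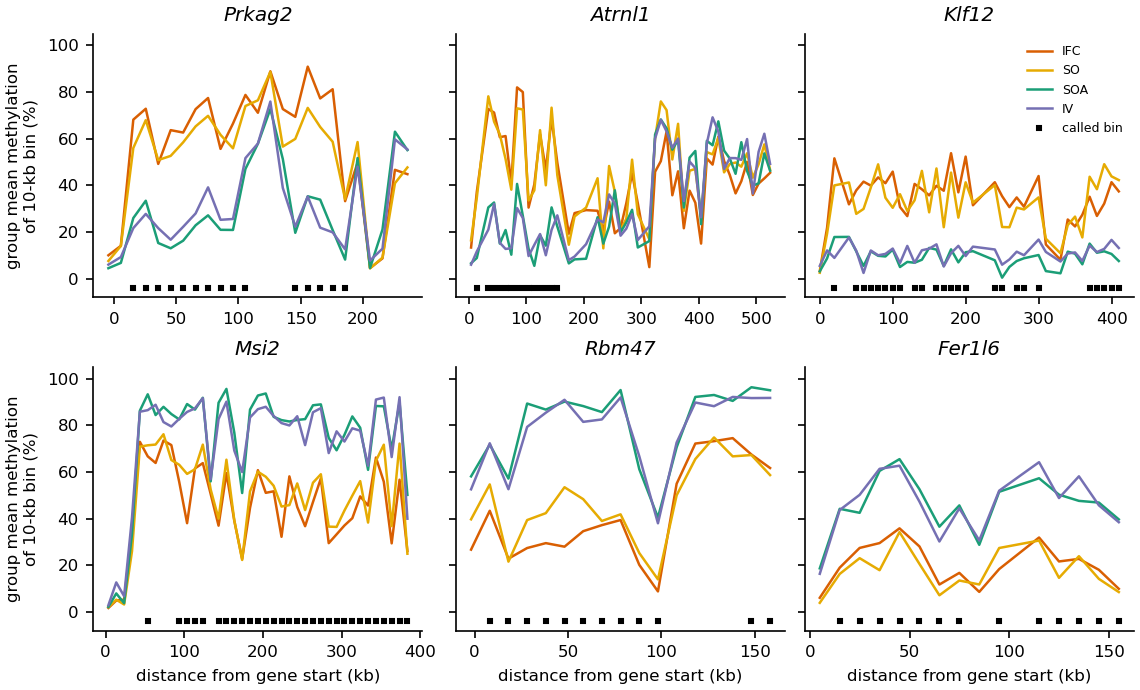
Group mean methylation (%) of 10-kb bins against the distance of the bin from the gene start (kb) for 3 hypermethylated (top) and 3 hypomethylated genes (bottom); black squares mark called bins. IFC and SO run together and apart from SOA and IV along the called blocks, and the lines meet near the 5′ end of Msi2 and in the distal parts of Prkag2 and Atrnl1.

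Some genes with 1 to 3 called bins also had large gene-body differences, and these were picked after their values were seen. Styxl1, a pseudophosphatase, stood at 63.7% ± 9.24 (SD, n = 9) against 21.8% ± 5.12 (SD, n = 7). Cnr1, the cannabinoid receptor of the brain, stood at 45.8% ± 9.86 (SD, n = 9) against 8.02% ± 3.54 (SD, n = 7). Drd3, a dopamine receptor, stood at 49.3% ± 9.08 (SD, n = 9) against 21.0% ± 4.74 (SD, n = 7). All 3 differences passed the test, with adjusted p = 1.47e-05, 9.43e-05 and 0.000714. In the other direction, the gene listed as ccdc198 stood at 15.9% ± 6.63 (SD, n = 9) against 64.1% ± 13.5 (SD, n = 7). Klk15 stood at 17.9% ± 11.1 (SD, n = 9) against 58.0% ± 9.10 (SD, n = 7), on a median of 45 calls per library. Ddx60, an antiviral helicase, stood at 32.5% ± 10.5 (SD, n = 9) against 67.9% ± 3.46 (SD, n = 7). These differences passed with adjusted p = 0.000186, 0.000347 and 0.00155.

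Gene lists were chosen with earlier results of these data known, so their counts are descriptions beside the counts over all genes. Of 28 developmental transcription factors, 12 passed higher and 0 lower, with a median difference of 3.22 points, against 2.52% higher, 1.31% lower and a median of 0.40 points over all 16308 protein coding genes tested. The list holds Tcf4, Zfp521, Klf12, Npas3, Zbtb20 and Prdm16, described above. It also holds Foxp2, at 52.4% against 42.8%, and Gli3, a mediator of Hedgehog signalling, at 59.2% against 47.4%. Of 32 axon guidance genes, 6 passed higher and 1 lower, with a median of 1.34 points. Sema3a, a repulsive guidance ligand, ran from 32.9% (median 42.2%) to 48.0% in prepubertal and from 18.2% (median 20.2%) to 30.3% in adult libraries, a difference of 20.1 ± 2.35 points (adjusted p = 0.000773). Slit2, a ligand of ROBO receptors, had means of 37.3% and 17.9% and missed the 20-point limit. Sema3e was lower, with 34.3% against 40.1%.

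Of 18 cadherins and catenins, 3 passed higher and 0 lower, among them Cdh8, a neuronal cadherin, at 65.4% ± 4.33 (SD, n = 9) against 50.03% ± 1.93 (SD, n = 7). Of 22 glutamate receptor genes tested, 2 passed higher, among them Grik5, and 0 lower. The test passed in 0 of 23 oocyte and maternal-effect genes, 0 of 23 genes of hormone and growth factor signalling in the follicle and 0 of 13 genes of the PI3K and mTOR pathway, in either direction. With 2.52% and 1.31% of all protein coding genes passing, lists of this size would hold few called genes, so these counts are near the background. Their median differences were -0.68, -0.82 and 1.73 points. Dppa3, a maternal factor that protects methylation in the zygote, had 41.4% against 52.6%, which did not pass. Of 17 genes of the DNA methylation machinery, only Tdg, a thymine DNA glycosylase, passed, at 27.5% ± 6.77 (SD, n = 9) against 15.2% ± 8.69 (SD, n = 7), and its classes overlapped. Dnmt3a had 72.0% and 73.4%, Dnmt3l 78.4% and 78.1%, and Dnmt1 92.3% and 92.5%.

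Few promoter regions passed the quasi-binomial F test. Within 1000 bp of the outermost start, 5372 of 30233 genes (17.8%) had enough calls. Of these, 3 (0.0558%) passed, 2 higher (0.0372%) and 1 lower (0.0186%) in prepubertal oocytes. The other regions were not tested, so the count does not show that promoters are alike in the classes. By limma 2 passed, without the floor on the dispersion 5, at 20 calls 1, and by the likelihood-ratio test 463. Among all regions tested, 0.0186% had every prepubertal library above every adult library and 0.0372% had the reverse. Both higher regions passed 20 points. Mertk, a receptor tyrosine kinase for the uptake of apoptotic cells (region chr2:128697956-128699956), ran from 62.5% (median 79.4%) to 90.0% in prepubertal and from 26.2% (median 36.7%) to 76.7% in adult libraries, a difference of 35.5 ± 7.71 points (adjusted p = 0.0309), and overlapped through SOA1. The region of the lncRNA Gm11399 (chr11:3141048-3143048), inside Sfi1, had 45.5% and 64.5%, and passed below the 20-point limit. The Sfi1 gene body held a median of 6790.5 calls per library, more than the far longer Tcf4 with 1822.

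The last comparison asked whether the difference between superovulated groups, SO minus SOA, was unequal to that between IFC and IV. It passed in 0 of 127112 bins by the quasi-binomial F test, with 8729 bins at an unadjusted p below 0.05, and in 1 of 21525 genes (0.00465%), Crhr1. Among the 1643 called bins, 196 had an unadjusted p below 0.05 in this test, beside the 8729 among all 127112. Of the named genes, the lowest unadjusted p in this test was that of Etl4 (0.000182, adjusted p = 0.207), at -5.71 points for SO minus SOA and -17.8 for IFC minus IV. Tcf4 followed (0.00109, adjusted p = 0.280), at 23.2 and 37.8 points. Bins and genes that did not pass are not shown to differ equally in both pairs.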

How the data were processed

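DNA methylation was measured by PBAT sequencing in 16 pools of MII oocytes. Per the labels and the study's methods, the authors trimmed reads with Trim Galore 0.4.4 and cutadapt 1.9.1, mapped them to GRCm38 with Bismark 0.19.0 and removed duplicates. The deposited files give, per CpG, counts of methylated and unmethylated calls and a percent methylation computed by the authors. The counts were tested here, and the percent column was only checked against them. As the F1 oocytes were mapped to the C57BL/6J reference, a C-to-T difference of the CBA/Ca genome is read as unmethylated, in all groups alike.

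Calls were summed over autosomal 10-kb bins, gene bodies (GENCODE M21) and regions within 1000 bp of the outermost gene start, and features with at least 10 calls in all 16 libraries were kept. Libraries were grouped as prepubertal (IFC and SO) or adult (SOA and IV). A logistic model with maturity as its term was tested by a two-sided quasi-binomial F test, with the dispersion between libraries held at 1 or more, and p-values were adjusted by Benjamini-Hochberg over all features of a kind. Class means are means of library percentages, and differences are in percentage points. Per-library means were compared by exact permutation over 11440 assignments, whose smallest p is 8.74e-05. Named genes are those with most called bins, 14 hypermethylated and 10 hypomethylated. Members and lists were chosen with earlier results of these data known. A sequence shown is the 200-base window with most covered CpGs in a called bin of the gene, or in its promoter region. Median calls per bin ran from 27 to 120 per library, and between 65.5% and 91.5% of positions had 1 call.

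A simulation was run over 127112 bins of the comparison of prepubertal with adult oocytes. In it, 19 of 100 bins changed by 20 points and 68 of 100 changed by 30 points were called, with 3 of 126912 unchanged bins. Calls were drawn at the depths of these libraries, with the median dispersion given to every bin. The changed bins were of intermediate methylation, and groups within a class were simulated alike, whereas the real classes are mixed. Shared replicate numbers were not taken as pairs. Python 3.11.15, NumPy 2.4.6, SciPy 1.17.1, pandas 2.3.3, matplotlib 3.10.9, R 4.3.3 and limma 3.58.1 were used. Alternatives were the likelihood-ratio test, limma, other coverage and difference limits, shifted bins, tiles of 100 CpGs, thinned libraries, depth classes, the replicate block, a fit of 4 groups, and leaving out a library or group. Sex chromosomes were not analysed here. The values of some features that passed the tests are not reported here.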

Additional observations from a re-analysis of the deposited data

Results flagged for a closer look

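Of 70 sets of adult or prepubertal values examined, 9 had a library far from the others, where chance alone gives about 1 in 20. Library IV1 was far from the other adult libraries in 4 of them. Its mean over bins below 20% was 15.2%, against 6.25% to 8.10%. Its mean over bins above 80% was 89.2%, against 91.6% to 93.2%. The share of its bins below 20% was 34.5%, against 42.2% to 45.3%. In Arhgap24 it stood at 24.8%, against 13.2% to 16.9%. The part of IV1 in the class difference is given by the fits without it: the named genes all passed, and the overall difference in mean bin methylation went from -0.27 to 0.20 points.

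Among prepubertal libraries, SO3 was apart in Ctnnd2, at 34.6% against 39.0% to 43.2%, and in Msi2, at 60.3% against 41.3% to 50.7%. In both it lay towards the adult values. Among adult libraries, SOA1 had 79.8% in Msi2, against 71.5% to 73.5%. SOA2 had 91.4% in Xdh, against 84.0% to 86.7%. SOA3 had 41.4% in Etl4, against 46.7% to 50.7%, which is below the highest prepubertal library.

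Crhr1, the receptor of corticotropin-releasing hormone (chr11:104132855-104175523, plus strand), was the gene whose difference was unequal between the pairs of groups (quasi-binomial F test of the interaction, adjusted p = 0.0398). IFC minus IV was 50.9 points and SO minus SOA 2.70 points. The 4 IFC libraries had a gene-body mean of 75.9% ± 4.90 (SD, n = 4). For SO it was 31.6% ± 10.5 (SD, n = 5), for SOA 28.9% ± 1.46 (SD, n = 4), and for IV 25.004% ± 1.86 (SD, n = 3). SO1 reached 50%, and the other SO libraries ran from 23.6% to 29.8%. The difference between prepubertal and adult classes did not pass here (adjusted p = 0.305).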

How the results depend on the processing

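Counts moved with the processing. The likelihood-ratio test gave 18722 differing bins, 1347 hypomethylated bins and 463 promoter regions, and in simulation it called 4.92% of unchanged bins. Without the floor on the dispersion, 5 promoter regions passed. At 20 calls, 1650 bins differed, 414 hypermethylated and 392 hypomethylated, and 1 promoter region passed, with 57032 bins tested. A limit of 30 points left 276 and 298 bins and 19 and 14 genes. Thinned libraries gave 1264 differing bins, with 535 hypermethylated and 517 hypomethylated. Tiles of 100 CpGs gave a mean difference of 0.15 points. Among the 9 libraries below 10000000 calls, 0 bins differed, 0 were hypermethylated and 0 hypomethylated by the quasi-binomial F test, with 7 genes hypermethylated and 1 hypomethylated. Among the 7 above, 0 bins and 0 genes passed. All 841 and 802 bins kept their direction in both depth classes, with an unadjusted p below 0.05 in 84.8% and 91.3% of them below and in 93.3% and 89.0% above 10000000 calls. As the bins were chosen on all 16 libraries, the selection largely fixes these shares, and they are no independent support. Without IFC, 804 bins differed, 411 hypermethylated and 253 hypomethylated, with 29 genes hypomethylated. Without IV, 672 bins differed, 367 and 203, with 39 genes hypomethylated. Of the named genes, Arhgap24 and Mapk10 did not pass without IFC, and Prdm16, Mapk10 and Etl4 did not pass without IV. Of the 24, 5 passed below and 0 above 10000000 calls, although none changed direction and differences above 10000000 calls were near those of all libraries in, for example, Tcf4 (30.94 against 29.51 points) and Rbm47 (-32.47 against -32.84), and smaller in Xdh (-19.40 against -28.72) and Etl4 (-7.13 against -11.06). All 24 passed when any 1 library was left out. The cause of these changes was not tested. The libraries below 10000000 calls held no IV and those above held no IFC, so depth and group cannot be told apart in those fits.

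Leaving out 1 library gave 1944 (without SOA4) to 3284 (without SO3) differing bins, 682 to 908 hypermethylated and 619 to 1071 hypomethylated bins, 74 to 102 and 54 to 89 genes, and a mean difference of -0.55 to 0.20 points. Bins chosen by the likelihood-ratio test, an alternative added after seeing the data, numbered 2327 between SO and SOA and 4627 between IFC and IV. With the replicate block, 1548 bins differed, 435 were hypomethylated and 43 genes were hypomethylated. Same-numbered libraries correlated between -0.05 and 0.08 over 21 pairs, so the numbers were not taken to pair them. The calls of limma, the depth covariate, the fit of 4 groups and shifted bins stayed within 1.5 times of those given. In simulation, at the depth and median dispersion of these libraries, 19 of 100 differences of 20 points were recovered. Uncalled bins are therefore not shown to be alike.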
